A study of Mus musculus with 4 samples.

Results

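The miRNAs numbered miR-6335 to miR-6419 are a run of consecutive mouse miRNA names, and they were followed in extracellular vesicles (EVs) secreted by primary mouse hepatocytes. Members were taken by name from the miRNA probes of the arrays, with or without an arm suffix. This gave 88 miRNAs of 1881 on the array, covering all 85 numbers of the range, of which 82 carried no arm suffix and 6 were named as a 5p or 3p arm. The rule uses names only, but it was set with earlier results of these data known.

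EV RNA of 4 groups was hybridised to Agilent mouse miRNA arrays, with 1 array per group and RNA pooled from 4 animals on each. HFD-LKO EV and Chow-LKO EV came from male B6 mice with a liver knockout of Ggpps, fed a high-fat diet or chow. HFD-EV and Chow-EV came from wild-type male B6 mice on the same diets. Ggpps encodes the enzyme that makes geranylgeranyl diphosphate. The strain is given as the labels spell it. All mice were 20 weeks old, the label of every sample gives 12 weeks of diet, and hepatocytes were put into culture before EVs were collected. The knockout was made by crossing floxed mice with the Mx1-Cre line, in which an interferon-type stimulus, here PIPC, turns Cre on. Mx1-Cre is known to recombine in blood-forming cells as well as in liver, and whether the wild-type mice were also injected is not given in the sources used here. With 1 array per group there is no spread between animals, so no test between groups was made. Each ± gives the spread between replicate spots of a probe as an SD, propagated into log2 ratios, and it covers technical noise within an array only.

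A miRNA is a short RNA that guides Argonaute proteins to messenger RNAs, and target choice rests mainly on its seed, which is bases 2 to 8 from the 5′ end. miRNA names are numbered in order of deposit, so high numbers such as these mark sequences that came from deep sequencing of small RNA, late in the history of the catalogue, and many have had little study. EVs released by cells carry miRNAs that recipient cells can take up. Short sequence motifs have been linked to loading, among them GGAG, bound by hnRNPA2B1, and GGCU, bound by SYNCRIP in hepatocytes.

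The mature sequences of 74 of the 88 members were found by name in the RefSeq table for GRCm38.p6. Of the 27 members above background on at least 1 array, 22 had a sequence, and the 5 without an entry were miR-6359, miR-6360, miR-6378, miR-6388 and miR-6407. The first set holds members that were higher in EVs of Ggpps knockout hepatocytes than in EVs of wild-type hepatocytes on both diets, with the seed in capitals.
miR-6349: uGGAAUGUgggaggggcaugcg
miR-6354: uGCCCUGGggaucaggucucu
miR-6394: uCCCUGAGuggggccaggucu
miR-6401: uUACACUCcaguggugucgggu
The next set holds members with log2 ratios below 0 in knockout over wild-type EVs on both diets, with the same use of capitals.
miR-6392-3p: gACGCAGGuuugccggguccucu
miR-6343: uGUAAAGUaggagcugacugac
miR-6345: uAGCACUGcucagggugaacu
miR-6351: uAGCGUUGcucagggagcacaug
The last set shows miR-6366, which gave signals of 2813 or more on every array, and the pair miR-6368 and miR-6405, the only members above background that shared a seed.
miR-6366: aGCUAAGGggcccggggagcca
miR-6368: cUGGGAAGcaguggaggggag
miR-6405: gUGGGAAGcagugggaagcagug
On GRCm38.p6, miR-6349 lies at chr1:39186908-39186929 on the minus strand, miR-6354 at chr1:169019041-169019061 on the minus strand, and miR-6392-3p at chr15:84168334-84168356 on the plus strand. Both miR-6345, at chr1:93352191-93352211 on the plus strand, and miR-6351, at chr1:73855553-73855575 on the minus strand, contain the 9-base run UGCUCAGGG, which begins with the last 2 bases of the seed. miR-6368 and miR-6405 share a run of 13 bases, UGGGAAGCAGUGG, which takes in the seed.

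Most of these miRNAs gave no signal above background in hepatocyte EVs. Detection was judged spot by spot, and a miRNA counted as above background on an array if over 0.5 of the spots of any of its probes were well above background according to Feature Extraction, the scanner software. By that rule 27 of the 88 members (30.7%) were above background in HFD-LKO EV, 23 (26.1%) in Chow-LKO EV, 26 (29.5%) in HFD-EV and 25 (28.4%) in Chow-EV. Over all miRNAs on the array the shares were 27.0%, 25.6%, 26.2% and 26.4% in the same order of groups, so the members were detected about as often as the array as a whole. Altogether 27 members (30.7%) were above background on at least 1 array, beside 515 of the 1793 other miRNAs (28.7%). Among the other miRNAs with a plain number in the name, the share was 29.6% for the 551 with the lowest numbers. It was 32.4% for the 210 numbered between those and miR-6335, and 27.1% for the 608 numbered after miR-6419. Among these, detection did not fall steadily with a later number. The 424 miRNAs classed as having no plain number, with a share of 28.1%, were left out of that order.

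The label of hepatocyte EVs was checked on miRNAs known from hepatocytes, and miR-122-5p, miR-192-5p, miR-194-5p and miR-148a-3p were all above background on every array. No spot was saturated, 2146 to 2544 of 56430 miRNA spots per array were left out as outliers, and negative control spots averaged between -2.09 and -1.35 units. The lowest signals of any miRNA above background were 13.8 in HFD-LKO EV, 17.0 in Chow-LKO EV, 19.9 in HFD-EV and 15.5 in Chow-EV. Signals of different miRNAs depend on the probe, and they are not amounts of RNA. The members made up 2.08% of the summed signal above background in HFD-LKO EV, 1.85% in Chow-LKO EV, 2.42% in HFD-EV and 1.69% in Chow-EV, and these are shares of brightness only.

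**Figure D1:**
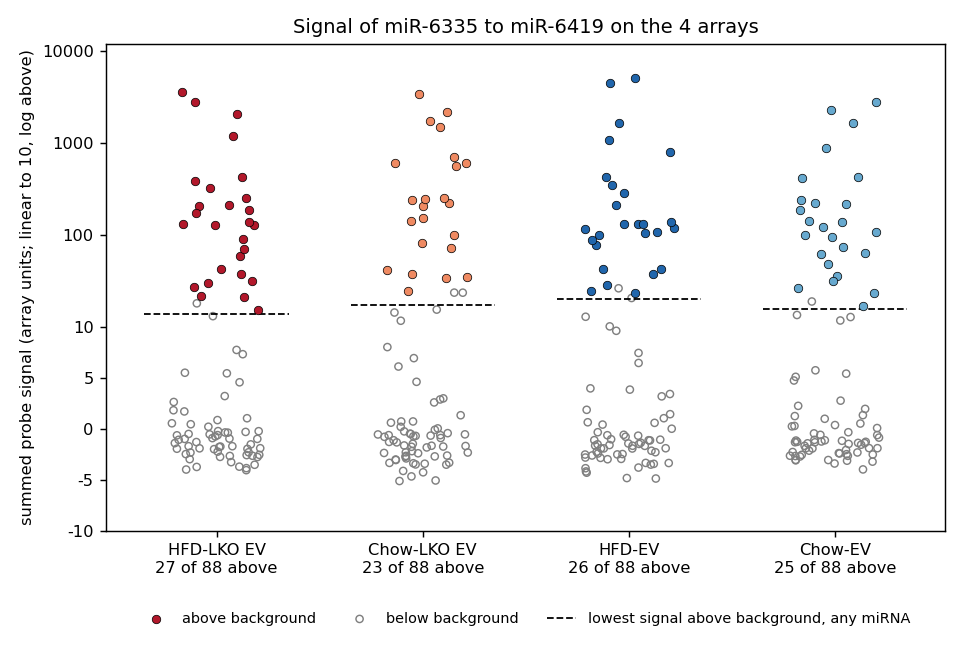
Signal of each of the 88 members on the 4 arrays, as the sum over its probes in array units, on an axis that is linear to 10 and logarithmic above. Filled points were above background, open points were not, and dashed lines mark the lowest signal of any miRNA above background. Between 61 and 65 members per array lie below background, most of them around 0, and the members above background reach 5069.6 units, in HFD-EV.

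The 61 members that were never above background lay close to the negative controls. The ranges that follow take every member below background on the given array, including those called on another array. Signals ran from -4.07 to 17.9 in HFD-LKO EV, from -5.14 to 23.5 in Chow-LKO EV, from -4.89 to 26.2 in HFD-EV and from -4.00 to 18.8 in Chow-EV, with medians between -1.52 and -1.10. The 26.2 in HFD-EV and the 18.8 in Chow-EV were those of miR-6413, which was called in HFD-LKO EV. Of the 61, 57 stayed under 10 units on every array. The highest summed signal of the 61 was that of miR-6399, with 17.9 in HFD-LKO EV, 23.5 in Chow-LKO EV, 9.59 in HFD-EV and 13.4 in Chow-EV. It was one of 6 members with 3 probes rather than 2. In HFD-EV, miR-6373 gave 20.5 with 2 probes. Which of the 61 came nearest to a call by its share of spots was not compared. Where the array carried both arms of a hairpin, only 1 arm was above background. miR-6392-5p, miR-6416-5p and miR-6418-3p stayed between -2.97 and 1.42 units, while their partner arms miR-6392-3p, miR-6416-3p and miR-6418-5p were above background on all 4 arrays.

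Detection was uniform for 23 members, which were above background on all 4 arrays, and differed between arrays for the other 4. miR-6413 gave 31.5 in HFD-LKO EV, where both of its probes were above background, but 23.4 in Chow-LKO EV, 26.2 in HFD-EV and 18.8 in Chow-EV, where neither was. miR-6347 gave 21.6 in HFD-LKO EV, 42.6 in HFD-EV and 23.3 in Chow-EV, and was below background only in Chow-LKO EV, at 15.3. miR-6402 followed the same pattern, with 21.0 in HFD-LKO EV, 28.8 in HFD-EV and 16.9 in Chow-EV, and 14.2 in Chow-LKO EV below background. miR-6359 gave 15.0 in HFD-LKO EV and 23.0 in HFD-EV, both above background, against 11.6 in Chow-LKO EV and 12.7 in Chow-EV, so it was called on the 2 high-fat arrays alone. All 4 of these members lay near the detection limit. On the arrays where they were called, the brighter probe had between 53.3% of its spots above background, for miR-6359 in HFD-LKO EV, and 100%, for miR-6347 and miR-6402 in HFD-EV and for miR-6347 in Chow-EV.

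The 23 members above background on all 4 arrays mostly peaked in 1 of 2 groups, HFD-EV or Chow-LKO EV. After each array was divided by its 75th percentile over the 443 miRNAs above background everywhere, 12 members (52.2%) were highest in HFD-EV, 8 (34.8%) in Chow-LKO EV, 2 in HFD-LKO EV and 1 in Chow-EV. Over the 443 miRNAs, 21.4% were highest in Chow-LKO EV and 39.7% in HFD-EV. The scaled level was at once highest in HFD-EV and lowest in Chow-LKO EV for 9 members (39.1%, against 33.0% of the 443) and the reverse for 7 (30.4%, against 17.2%). The highest level exceeded the lowest by a median of 0.96 on the log2 scale over the members and 0.74 over the 443, and by 2.47 for miR-6392-3p. In pooled EV RNA, fewer vesicles that hold a miRNA and less of that miRNA per vesicle cannot be told apart.

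**Figure D2:**
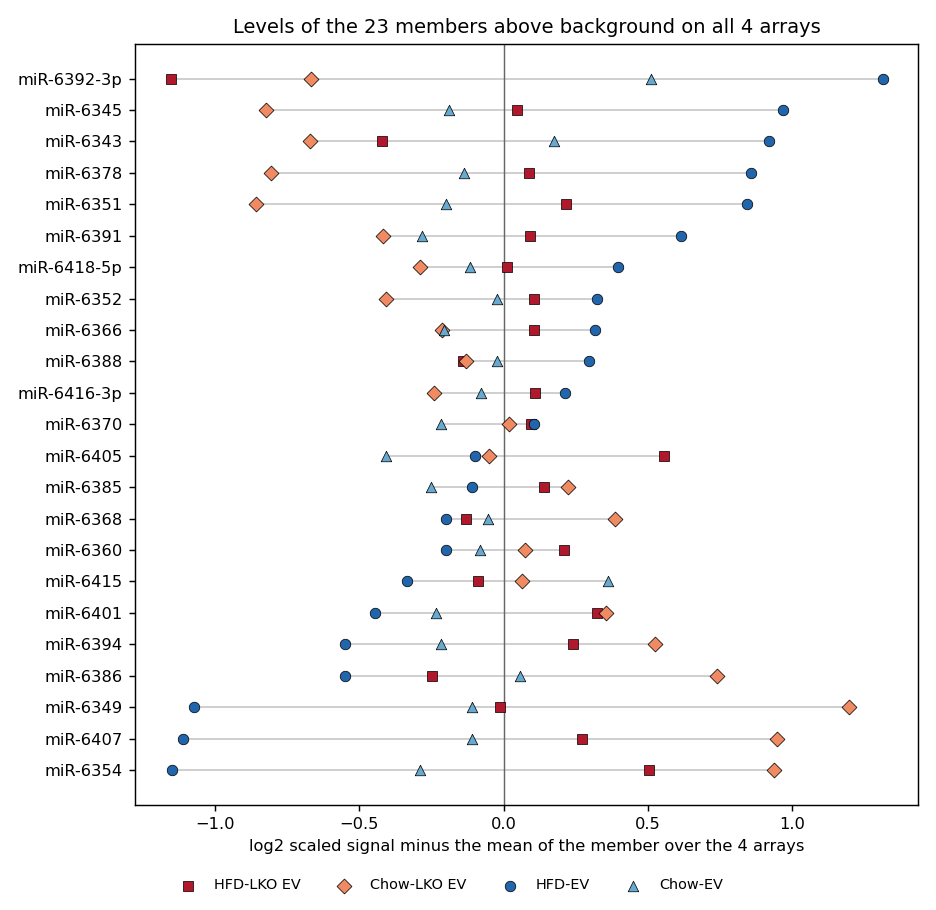
Scaled log2 signal of the 23 members above background on all 4 arrays, each minus its own mean over the arrays, with members from top to bottom by falling level in HFD-EV. Squares are HFD-LKO EV, diamonds Chow-LKO EV, circles HFD-EV and triangles Chow-EV. miR-6392-3p, miR-6345, miR-6343, miR-6378 and miR-6351 stand high in HFD-EV, while miR-6349, miR-6407 and miR-6354 stand lowest in HFD-EV and highest in Chow-LKO EV.

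The members miR-6349, miR-6354 and miR-6407 stood out at the low end in HFD-EV. Signals here and in the paragraphs that follow were not scaled between arrays, unlike the levels called scaled. miR-6349 gave signals of 209 ± 14.9 in HFD-LKO EV, 562 ± 20.1 in Chow-LKO EV, 106 ± 5.05 in HFD-EV and 188 ± 11.9 in Chow-EV. miR-6354 gave 386 ± 19.1 in HFD-LKO EV, 607 ± 24.2 in Chow-LKO EV, 131 ± 11.2 in HFD-EV and 214.5 ± 14.02 in Chow-EV. miR-6407 gave 324 ± 17.4 in HFD-LKO EV, 603 ± 46.6 in Chow-LKO EV, 132 ± 10.9 in HFD-EV and 239.6 ± 19.7 in Chow-EV. All 3 were highest in Chow-LKO EV and lowest in HFD-EV, with HFD-LKO EV above Chow-EV, a gap that for miR-6349 was within the sum of the spot SDs. miR-6394 and miR-6401 had the same ends with smaller gaps. miR-6394 gave 172 in HFD-LKO EV, 244 in Chow-LKO EV, 106 in HFD-EV and 121 in Chow-EV, and miR-6401 gave 210.2, 250.1, 131 and 138 in the same order of groups. miR-6386 gave 90.3 in HFD-LKO EV, 208 in Chow-LKO EV, 77.8 in HFD-EV and 107 in Chow-EV, so its Chow-LKO EV signal stood apart from the other 3. miR-6368 did likewise, with 423 in HFD-LKO EV, 704 in Chow-LKO EV, 429 in HFD-EV and 429 in Chow-EV.

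The members high in HFD-EV were led by miR-6392-3p. It gave 136 ± 7.81 in HFD-LKO EV, 222 ± 13.0 in Chow-LKO EV, 801 ± 38.4 in HFD-EV and 415 ± 28.2 in Chow-EV, with both knockout arrays below both wild-type arrays. miR-6343 had the same split, with 42.5 ± 4.06 in HFD-LKO EV, 41.5 ± 5.33 in Chow-LKO EV, 114 ± 6.19 in HFD-EV and 61.7 ± 5.71 in Chow-EV. miR-6345 gave 58.8 ± 8.21 in HFD-LKO EV, 37.4 ± 6.76 in Chow-LKO EV, 119 ± 13.9 in HFD-EV and 48.0 ± 9.95 in Chow-EV. miR-6351, which shares the 9-base run with miR-6345, gave 129.7 ± 12.1 in HFD-LKO EV, 71.7 ± 13.1 in Chow-LKO EV, 213 ± 17.4 in HFD-EV and 93.6 ± 5.93 in Chow-EV. For these 2 the order was HFD-EV, HFD-LKO EV, Chow-EV and Chow-LKO EV from high to low, so each high-fat array lay above both chow arrays. The gap between HFD-LKO EV and Chow-EV of miR-6345 was within the sum of their spot SDs. miR-6378 gave 2797 in HFD-LKO EV, 1753 in Chow-LKO EV, 5069.6 in HFD-EV and 2301 in Chow-EV, in that same order of arrays. miR-6391 gave 189 in HFD-LKO EV, 154 in Chow-LKO EV, 287 in HFD-EV and 139.8 in Chow-EV, also highest in HFD-EV. Its scaled level was lowest in Chow-LKO EV.

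The other members above background on all 4 arrays differed by up to 0.96 on the log2 scale between their highest and lowest scaled level. miR-6366 gave 3630.2 in HFD-LKO EV, 3387 in Chow-LKO EV, 4466 in HFD-EV and 2813 in Chow-EV. miR-6360 gave 2081 in HFD-LKO EV, 2204 in Chow-LKO EV, 1665 in HFD-EV and 1638 in Chow-EV, and its scaled level varied by 0.41 on the log2 scale between its highest and lowest array. miR-6385 gave 1197 in HFD-LKO EV, 1479 in Chow-LKO EV, 1071 in HFD-EV and 879 in Chow-EV. These 3, with miR-6378, were the only members with signals of 879 or more on every array. miR-6418-5p gave 255 in HFD-LKO EV, 240.0 in Chow-LKO EV, 353 in HFD-EV and 224 in Chow-EV, highest in HFD-EV. miR-6370 gave 128 in HFD-LKO EV, 142 in Chow-LKO EV, 138 in HFD-EV and 99.5 in Chow-EV, and its scaled level was highest in HFD-EV. miR-6405 gave 129 in HFD-LKO EV, 98.9 in Chow-LKO EV, 87.4 in HFD-EV and 63.9 in Chow-EV, and shared with miR-6360 a scaled level that was highest in HFD-LKO EV. miR-6388 gave 69.9 in HFD-LKO EV, 81.9 in Chow-LKO EV, 101 in HFD-EV and 73.0 in Chow-EV. The dimmest were miR-6416-3p, with 37.4, 34.2, 42.8 and 31.6 in the same order of groups, miR-6415, with 27.1, 35.1, 24.3 and 35.7, and miR-6352, with 29.9, 24.4, 37.0 and 26.4. For these dim members the spot SDs were 3.98 to 6.52 units, and several gaps between their arrays were no larger.

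The effect of the high-fat diet in wild-type EVs was read from HFD-EV over Chow-EV. miR-6345 had a log2 ratio of 1.16 ± 0.34 and miR-6351 one of 1.04 ± 0.15, and these were the 2 members higher by 2-fold or more in HFD-EV. miR-6378 followed at 0.996 ± 0.07, just short of 2-fold. miR-6407, at -1.0006 ± 0.17, was the 1 member at least 2-fold lower, just past the limit, and miR-6349 (-0.97 ± 0.11) and miR-6354 (-0.86 ± 0.16) came next. Thus 2 and 1 of the 26 members with a ratio or a bound were called, where of all 511 such miRNAs 2.74% passed 2-fold upward and 1.76% downward. Ratios below the 2-fold limit but past 2 spot SDs included miR-6391 (0.90 ± 0.19), miR-6392-3p (0.80 ± 0.12), miR-6343 (0.75 ± 0.15), miR-6347 (0.73 ± 0.33) and miR-6386 (-0.61 ± 0.14). In all, 11 members were higher and 6 lower by more than 2 spot SDs, and 8 lay within them. Counts past 2 spot SDs were made for the members only in every comparison, so they do not set the members apart from other miRNAs. The median log2 ratio of the 25 members measured on both arrays was 0.32, and that of all 477 miRNAs so measured was 0.10. miR-6359, above background in HFD-EV only, was at least 1.34-fold higher there. The split depended on the scaling. Without any, 4 members passed 2-fold upward and 0 downward, as did 32 and 5 of all miRNAs, and with the 75th percentile taken over all miRNAs 1 member passed upward and 2 downward, as did 10 and 15 of all miRNAs, beside 14 and 9 with the scaling used here. With normexp background correction, or with the authors' normalised signals, 0 members passed 2-fold in either direction. Over all miRNAs, normexp left 2 upward and 2 downward of 506, and the authors' signals 2 and 3 of 513. miR-6351 turned to -0.56 when the total gene signal of Feature Extraction was used, and miR-6386 to 3.22.

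The effect of the Ggpps knockout on chow was read from Chow-LKO EV over Chow-EV, which uses the same Chow-EV array as the comparison above. The 3 members at least 2-fold higher in Chow-LKO EV were miR-6349 (1.30 ± 0.11), miR-6354 (1.23 ± 0.11) and miR-6407 (1.06 ± 0.16). The 1 member at least 2-fold lower was miR-6392-3p, at -1.18 ± 0.13. Those were 3 and 1 of 25 members, where of all 514 miRNAs with a ratio or a bound 2.92% passed 2-fold upward and 5.45% downward. miR-6394 (0.74 ± 0.16), miR-6386 (0.68 ± 0.13) and miR-6401 (0.59 ± 0.14) were higher by more than 2 spot SDs, as were miR-6385 (0.48 ± 0.07) and miR-6368 (0.44 ± 0.05). miR-6343 (-0.85 ± 0.23), miR-6378 (-0.67 ± 0.08) and miR-6351 (-0.66 ± 0.28) were lower by more than 2 spot SDs, and miR-6345, at -0.63 ± 0.40, was not. Over the 23 members measured on both arrays, 10 were higher and 4 lower past 2 spot SDs, the median log2 ratio was -0.01, and that of all 463 miRNAs so measured was -0.13. miR-6347 and miR-6402, below background in Chow-LKO EV, were at least 1.65-fold and 1.20-fold lower there. With normexp, 0 members passed 2-fold in either direction. The median depends on the scaling, since it was 0.27 with no scaling and 0.15 with the 75th percentile over all miRNAs. Under these the calls over all miRNAs were 37 upward and 8 downward, and 19 and 15, beside 15 and 28 with the scaling used here.

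**Figure D3:**
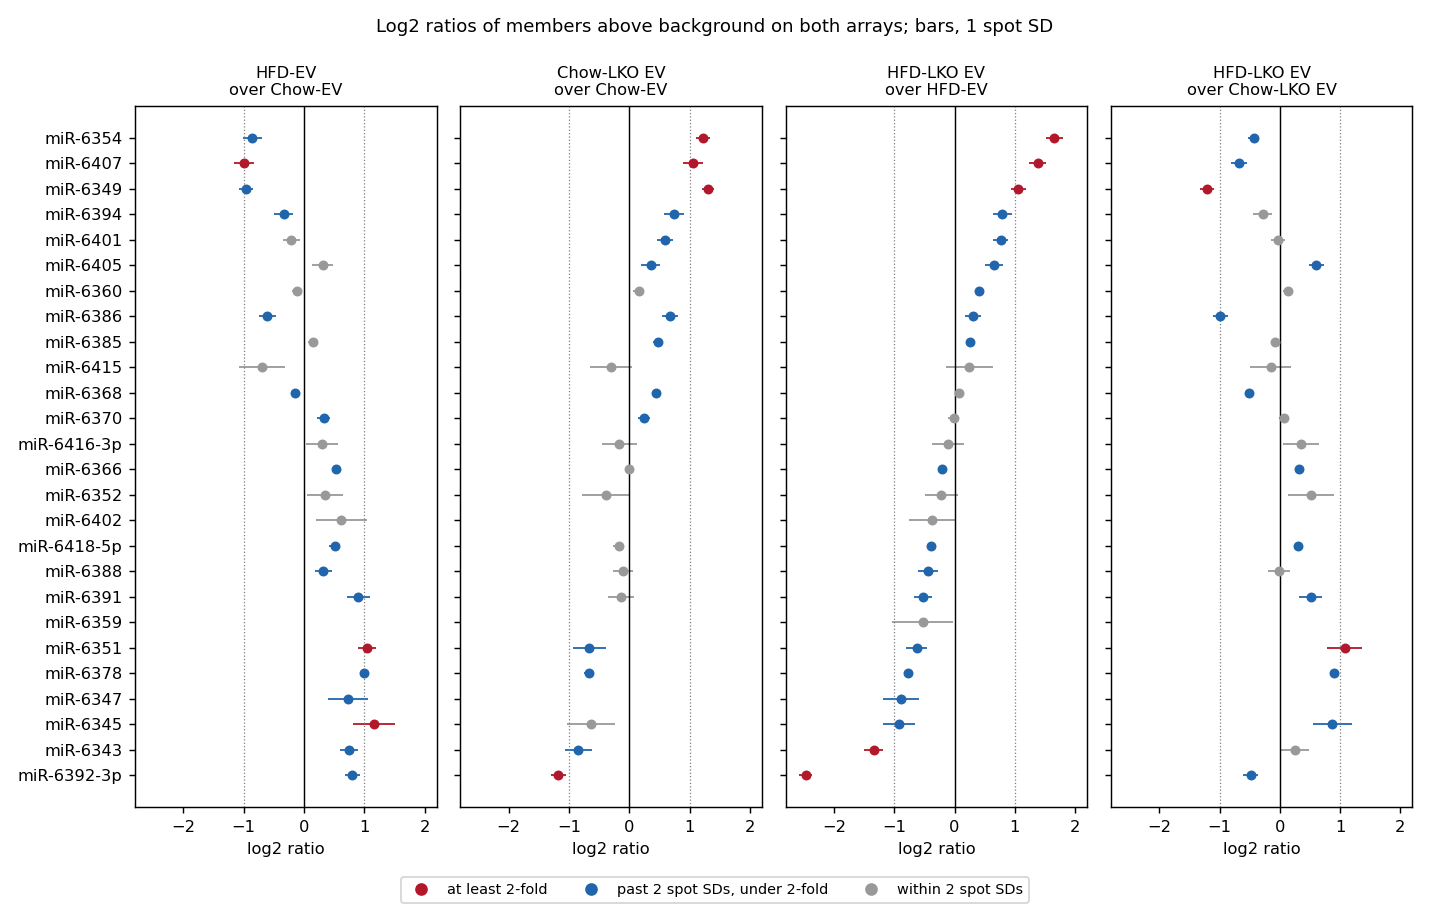
Log2 ratios of the members above background on both arrays, for each of the 4 comparisons, with bars of 1 spot SD and dotted lines at 2-fold. Red points are at least 2-fold, blue points are past 2 spot SDs but under 2-fold, and grey points lie within 2 spot SDs. miR-6354, miR-6407 and miR-6349 lie past 2-fold to the right in both knockout comparisons, and miR-6392-3p lies past 2-fold to the left in both.

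The effect of the knockout on the high-fat diet was read from HFD-LKO EV over HFD-EV, a pair of arrays separate from the pair on chow. Here 3 members were at least 2-fold higher in HFD-LKO EV, namely miR-6354 (1.65 ± 0.14), miR-6407 (1.38 ± 0.14) and miR-6349 (1.06 ± 0.12). miR-6392-3p had the lowest ratio of any member in any comparison, -2.47 ± 0.11, and miR-6343 was at -1.34 ± 0.16, which made 2 members at least 2-fold lower. Of all 521 miRNAs 7.87% passed 2-fold upward and 7.49% downward, beside 3 and 2 of 27 members. The ratio of miR-6392-3p was the 2nd lowest of the 474 miRNAs measured on both arrays. Members lower by less than 2-fold included miR-6345 (-0.92 ± 0.26), miR-6347 (-0.89 ± 0.30), miR-6378 (-0.77 ± 0.05) and miR-6351 (-0.63 ± 0.18), and members higher by less than 2-fold included miR-6394 (0.79 ± 0.16), miR-6401 (0.77 ± 0.12) and miR-6405 (0.65 ± 0.15). In all, 9 members were higher and 10 lower past 2 spot SDs, and 7 lay within them. The median over 26 members was -0.16, beside -0.06 over the 474. miR-6413, above background in HFD-LKO EV only, was at least 1.28-fold higher there. With normexp, 1 member passed 2-fold upward and 1 downward. The median turned to 0.11 when total gene signals were used. The calls over all miRNAs were 35 upward and 47 downward without scaling, and 50 and 34 with the 75th percentile over all miRNAs, beside 41 and 39 with the scaling used here.

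Between them, the 2 knockout comparisons gave the same sign for 21 of the 23 members (91.3%) and for 359 of the 443 miRNAs (81.0%). The exceptions were miR-6370 (-0.01 ± 0.09 on the high-fat diet, 0.24 ± 0.10 on chow) and miR-6415 (0.25 ± 0.38 and -0.30 ± 0.34), whose ratios on the high-fat diet lay within 2 spot SDs. The 3 members at least 2-fold higher without Ggpps were thus miR-6349, miR-6354 and miR-6407 on either diet.

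The effect of the high-fat diet in knockout EVs was read from HFD-LKO EV over Chow-LKO EV. miR-6351 was the 1 member at least 2-fold higher, at 1.07 ± 0.30, and miR-6349 the 1 member at least 2-fold lower, at -1.21 ± 0.11, the 2nd lowest ratio of the 466 miRNAs measured on both arrays. That was 1 of 27 members each way, where of all 522 miRNAs with a ratio or a bound 4.21% passed 2-fold upward and 1.53% downward. miR-6386 came close to 2-fold lower at -0.99 ± 0.13, and miR-6378 (0.89 ± 0.06) and miR-6345 (0.87 ± 0.33) were among the higher. miR-6407 (-0.68 ± 0.14), miR-6368 (-0.51 ± 0.05), miR-6392-3p (-0.49 ± 0.12) and miR-6354 (-0.43 ± 0.09) were lower past 2 spot SDs, and miR-6405 (0.61 ± 0.13), miR-6366 (0.32 ± 0.04) and miR-6418-5p (0.30 ± 0.07) were higher. In all, 7 members were higher and 6 lower past 2 spot SDs, and 10 lay within them. The median was 0.07 over 23 members and 0.14 over the 466 miRNAs. miR-6413, miR-6347, miR-6402 and miR-6359, all below background in Chow-LKO EV, were at least 1.57-fold, 1.48-fold, 1.43-fold and 1.03-fold higher in HFD-LKO EV. With normexp, or with the authors' normalised signals, 0 members passed 2-fold in either direction. Over all miRNAs, normexp left 1 upward and 1 downward of 515, and the authors' signals 2 and 1 of 523. With the total gene signal, miR-6351 turned to -2.03 and miR-6386 to 2.87, and the median turned to -0.14 with no scaling between arrays. The calls over all miRNAs were then 10 upward and 23 downward, and 16 and 16 with the 75th percentile over all miRNAs, beside 22 and 8 with the scaling used here.

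Set beside the diet comparison in wild-type EVs, which used the other 2 arrays, the sign of the diet ratio was the same for 19 of 23 members (82.6%) and 346 of 443 miRNAs (78.1%). The difference between the 2 diet ratios, knockout minus wild-type EVs, had a median of -0.20 over the members and 0.06 over the 443 miRNAs. It passed 2 spot SDs for 6 members with the scaling used here, a count that was not made over the 443 miRNAs. The widest was that of miR-6392-3p, at -1.29 ± 0.17, followed among the 6 by miR-6354 at 0.43 ± 0.18, miR-6368 at -0.37 ± 0.08, miR-6360 at 0.26 ± 0.12, miR-6385 at -0.23 ± 0.10 and miR-6366 at -0.20 ± 0.05. For miR-6351 the diet ratios were 1.07 in knockout EVs and 1.04 in wild-type EVs, with a difference of 0.03 ± 0.33. Without scaling, the difference shifted by the same amount for every member, and the members' median was -0.57. Which of the 6 would then stay past 2 spot SDs was not counted.

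Each member was read by at least 2 probes, with 10 to 15 spots each, and the separate probes mostly gave like ratios. Of the 27 members above background on at least 1 array, 15 had both probes above background on all 4 arrays, and 6 never had more than 1. Where both probes could be used, they had the same sign for 18 of 18 members in HFD-EV over Chow-EV, 15 of 16 in Chow-LKO EV over Chow-EV, 14 of 18 in HFD-LKO EV over HFD-EV and 14 of 16 in HFD-LKO EV over Chow-LKO EV. The median difference between the probes' log2 ratios was 0.13, 0.07, 0.11 and 0.07 in the same order of comparisons. Both probes of miR-6407 gave nearly the same ratio in HFD-LKO EV over HFD-EV, at 1.41 and 1.34, and both of miR-6345 did in HFD-EV over Chow-EV, at 1.13 and 1.20. For miR-6354 the probes gave 1.75 and 1.26 in HFD-LKO EV over HFD-EV, both past 2-fold.

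**Figure D4:**
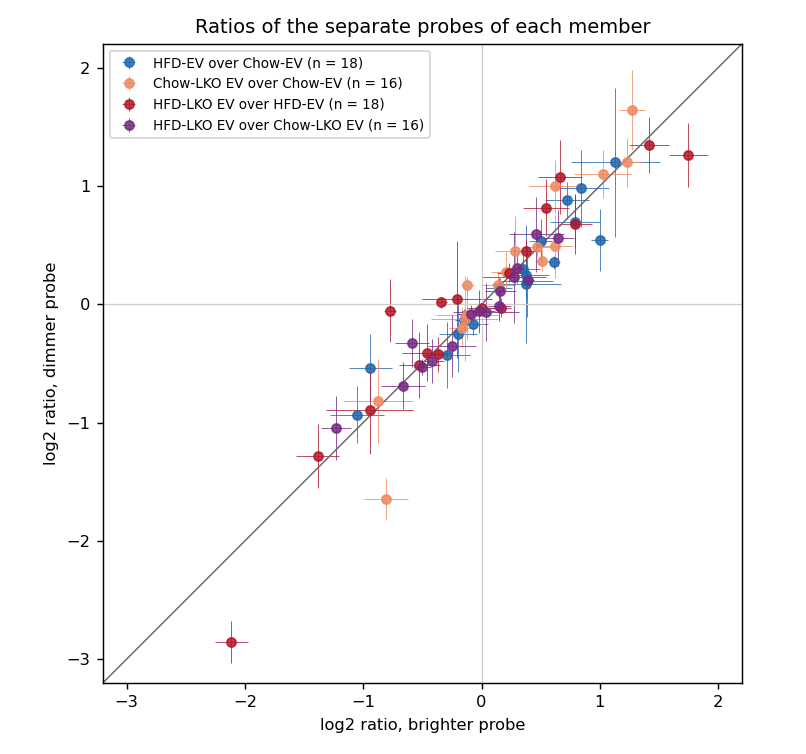
Log2 ratio of the dimmer probe of each member against that of the brighter probe, where both were above background on both arrays, with bars of 1 spot SD and the line of equality. Colours mark the 4 comparisons, with 16 to 18 members each. Most points lie along the line, and those of miR-6392-3p in the knockout comparisons, at 0.84 and 0.74 from it in log2, lie farthest off.

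The probes of a few members differed. Those of miR-6392-3p gave -2.12 ± 0.14 and -2.85 ± 0.18 in HFD-LKO EV over HFD-EV, and -0.81 ± 0.19 and -1.65 ± 0.18 in Chow-LKO EV over Chow-EV. Both probes were lower in knockout EVs on both diets, but the size of the difference depended on the probe. For miR-6366 the probes gave -0.34 ± 0.05 and 0.02 ± 0.05 in HFD-LKO EV over HFD-EV, so the small decrease of the summed signal came from the brighter probe. miR-6378 rested on 1 probe. That probe gave 2776 in HFD-LKO EV, 1737 in Chow-LKO EV, 5046 in HFD-EV and 2286 in Chow-EV, against 21.8, 15.8, 24.0 and 14.9 for the other, a gap of 153-fold in Chow-EV. Their log2 ratios in HFD-EV over Chow-EV were 0.999 ± 0.07 and 0.54 ± 0.26. In HFD-LKO EV over HFD-EV they were -0.77 ± 0.05 and -0.05 ± 0.27, a difference of 0.72 that was past 2 spot SDs. The decrease of miR-6378 in that comparison thus came from the brighter probe. The second probe of miR-6351 was above background in HFD-EV alone, at 16.4, and that of miR-6349 was not above background in HFD-EV, at 9.19, so the ratios of these 2 rest mainly on 1 probe. miR-6386 and miR-6415 likewise had 1 probe above background on every array.

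Probe design went with detection among the members. An Agilent miRNA probe matches a stretch at the 3′ end of the miRNA, which is trimmed to even out binding strength, and the authors' table gives 1 such stretch for each miRNA. It lay at the 3′ end in all 74 members with a sequence. Its median length was 15 nt for the 27 members above background and 17 nt for the 61 that never were, and it was at most 16 nt in 25 of 27 (92.6%) and 27 of 61 (44.3%). Among the other miRNAs on the array the shares were 66.4% of those above background and 49.4% of those never above. The G and C content of the stretch had a median of 64.3% in the members above background and 47.1% in those never above, beside 60% and 50% among other miRNAs.

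**Figure D5:**
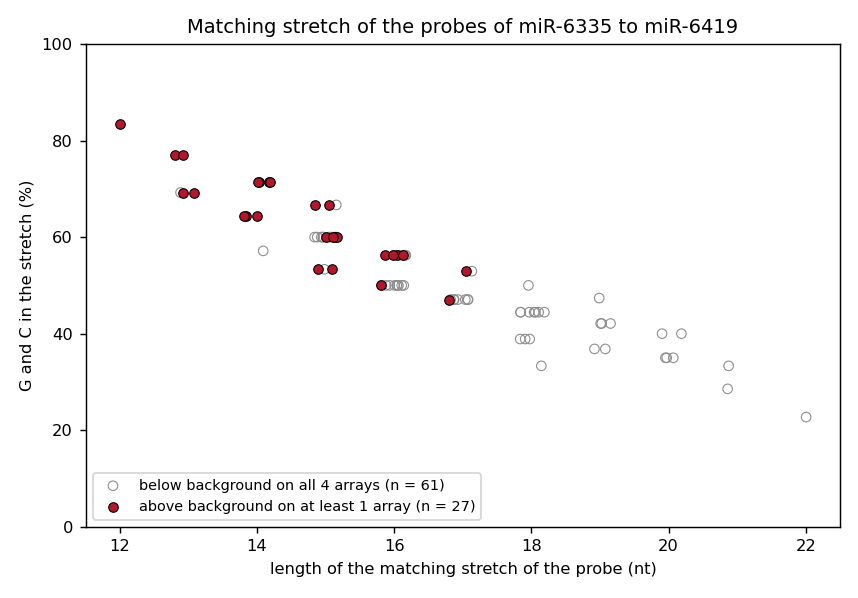
G and C content of the probe's matching stretch against its length for the 88 members, with a small sideways shift so that points do not hide each other. Filled points are the 27 members above background on at least 1 array and open points the 61 that never were. Filled points gather at short, G and C rich stretches, and none has a stretch longer than 17 nt.

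The whole mature sequences showed the same trend. The median G and C content was 57.1% in the 22 members above background with a sequence and 47.6% in the 52 never above, beside 56.5% and 50% among other miRNAs. The median share of G alone was 37.8% and 27.3%, beside 37.5% and 22.7%. GGAG was present in 7 of the 22 (31.8%) and 4 of the 52 (7.69%), beside 30.2% and 7.88% among other miRNAs and 14.4% of all miRNAs with a sequence. The 7 were miR-6343, miR-6347, miR-6349, miR-6351, miR-6366, miR-6368 and miR-6391. They include both miR-6349, higher without Ggpps, and miR-6343, lower without it. GGCU was present in 2 of the 22 (9.09%), miR-6347 and miR-6413, and in 9 of the 52 (17.3%), with 13.1% over all miRNAs. Both motifs were searched as plain letters in the mature strand, and G content, probe length and GGAG moved together with detection, and the part of each was not tested.

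Seeds were mostly distinct, with 63 different seeds in 74 sequences. Several members that were never above background carry seeds of well-known families. miR-6342, miR-6353 and miR-6419 share AGCAGCA with miR-15a-5p and miR-16-5p, miR-6341 and miR-6389 share AGUGCAA with miR-130a-3p and miR-301a-3p, and miR-6383 has the AAAGUGC of miR-17-5p and miR-20a-5p. Among members above background, miR-6394 has the seed CCCUGAG of miR-125a-5p and miR-125b-5p, members of a family first known from lin-4 in worms. miR-125b-5p gave signals of 452 in HFD-LKO EV, 611 in Chow-LKO EV, 702 in HFD-EV and 796 in Chow-EV, with log2 ratios of -0.55 ± 0.09 in HFD-LKO EV over HFD-EV and -0.65 ± 0.10 in Chow-LKO EV over Chow-EV. miR-125a-5p gave 36.1 in HFD-LKO EV, 18.7 in Chow-LKO EV, 114 in HFD-EV and 72.4 in Chow-EV, and was below background in Chow-LKO EV. These seed mates were thus lower in knockout EVs, where miR-6394 was higher.

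A second contrast between seed mates was that of miR-6351. It shares AGCGUUG with miR-6239, which gave 92.9 in HFD-LKO EV, 135 in Chow-LKO EV, 24.3 in HFD-EV and 51.9 in Chow-EV. Its log2 ratios were -1.24 ± 0.30 in HFD-EV over Chow-EV and 2.02 ± 0.29 in HFD-LKO EV over HFD-EV, against 1.04 ± 0.15 and -0.63 ± 0.18 for miR-6351. miR-6349 has the GGAAUGU seed of the muscle miRNA miR-206-3p, which was not above background on any array. miR-3547-5p, which shares UGGGAAG with miR-6368 and miR-6405, gave log2 ratios of -0.38 ± 0.06 in Chow-LKO EV over Chow-EV, against 0.44 ± 0.05 for miR-6368 and 0.36 ± 0.16 for miR-6405. The other seed mates of members above background on all 4 arrays, miR-450a-1-3p, miR-450b-3p, miR-873a-5p, miR-351-5p, miR-208a-5p and miR-208b-5p, were not above background on any array.

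By position, 48 of the 74 members with a sequence lay within the span of another RefSeq gene, 37 of them protein coding. Of the 22 above background with a sequence, 14 did, and 10 of these 14 had the strand of the gene. Only spans of whole genes were at hand, so exon and intron were not told apart. miR-6392-3p lies on the strand of Pnpla3, which encodes a lipid droplet protein of hepatocytes that acts in triglyceride turnover. miR-6345 lies within Ppp1r7, a regulator of protein phosphatase 1, miR-6391 within Abcc4, an exporter of organic anions, and miR-6418-5p within Gnb2, a subunit of G proteins, each on the strand of the gene. miR-6394 lies within Tenm4, miR-6405 within Pax2, miR-6402 within Elavl2 and miR-6352 within Epha4, also on the same strand, and miR-6351 and miR-6368 within the noncoding genes 6030407O03Rik and 2610307P16Rik. miR-6385, miR-6386, miR-6415 and miR-6416-3p lie opposite to Pml, Plscr1, Scarb2 and Trpm1. The arrays measured no messenger RNA, so the levels of these genes were not compared with those of the miRNAs.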

How the data were processed

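Mature miRNAs in hepatocyte EVs were measured on 4 Agilent 1-colour arrays, 1 per group. The intensity values are the processed spot signals that the authors deposited from Agilent Feature Extraction 10.7.1.1, background-subtracted and not normalised between arrays. The log2 values are the authors' normalised signals as deposited in their tables, used as an alternative only. The study's methods name U6 for normalisation and GenePix Pro for analysis, which the file headers do not. The columns of the authors' own fold changes were not used, and 1 per-sample column of the series table, that of HFD-EV, was left out because its values differed from those of the authors' own table for the same sample. HFD-EV was taken from that table instead.

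Control and outlier spots were dropped, the spots of a probe were averaged and probes were summed. Arrays were divided by the 75th percentile of the miRNAs detected on each of the 4 arrays (527.7 for HFD-LKO EV, 614.1 for Chow-LKO EV, 561.0 for HFD-EV and 507.9 for Chow-EV). A log2 ratio was computed where both arrays were above background, and a bound where 1 was, against the higher of the lowest signal above background and the miRNA's own signal. At least 2-fold counted as a call. No test was made, since a group is 1 array, and array number limits the precision. Groups were taken from the labels. Members and lists were chosen with earlier results of these data known. Every member above background on at least 1 array is named, with others by count and range, those with the highest summed signals, and the seed mates of members above background on all 4 arrays. Alternatives covered scaling, background correction (normexp with an offset of 50), probe summary, outlier spots, the filter, the detection call and the authors' values. Recovery of known log2 ratios was tested on simulated spots, apart from a shift common to all miRNAs. Detection calls were kept from Chow-EV there, so they were not tested. Mature sequences, positions and gene spans were from RefSeq, GRCm38.p6. Scripts ran in Python 3.11.15 (numpy 2.4.6, pandas 2.3.3, matplotlib 3.10.9), and normexp came from limma 3.58.1 under R 4.3.3.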

Additional observations from a re-analysis of the deposited data

Results flagged for a closer look

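miR-6392-3p moved in opposite directions with the diet in the 2 genotypes. Its log2 ratio was -0.49 in HFD-LKO EV over Chow-LKO EV and 0.80 in HFD-EV over Chow-EV, each past 2 spot SDs. Its probes gave -0.59 ± 0.14 and -0.33 ± 0.20 in HFD-LKO EV over Chow-LKO EV, the latter within 2 spot SDs. In HFD-EV over Chow-EV they gave 0.72 ± 0.19 and 0.88 ± 0.15. Across the settings the summed ratios ran from -0.70 to -0.26 and from 0.63 to 0.95 in the same order of comparisons. With 1 array per group the difference was not tested.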

How the results depend on the processing

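All 4 arrays lay on 1 slide and came from 1 scan, so the slide could not be used as a block, and that alternative was not run. No paired analysis was possible because each group is 1 array. Array number limits the precision, and members near the lowest signal above background are the least certain. Of 1038 alternative values of 97 member ratios, 748 moved by no more than the spot SD. The sign changed in 57 of the values, over 29 ratios, and 8 of these were of ratios past 2 spot SDs. The cause of these changes was not tested beyond what each setting itself alters.

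With no scaling between arrays, the median of all miRNAs shifted by 0.14 in HFD-EV over Chow-EV, 0.27 in Chow-LKO EV over Chow-EV, -0.09 in HFD-LKO EV over HFD-EV and -0.22 in HFD-LKO EV over Chow-LKO EV. The members' median was then 0.27 in Chow-LKO EV over Chow-EV and -0.14 in HFD-LKO EV over Chow-LKO EV, the median difference of the diet ratios was -0.57, and miR-6368 changed sign to 0.00102 in HFD-EV over Chow-EV. Members past 2-fold were 4 higher and 0 lower in HFD-EV over Chow-EV, 0 higher and 2 lower in HFD-LKO EV over Chow-LKO EV, and 0 lower in Chow-LKO EV over Chow-EV. With the 75th percentile over all miRNAs, the members' median was 0.15 in Chow-LKO EV over Chow-EV and -0.0806 in HFD-LKO EV over Chow-LKO EV, with 1 higher and 2 lower in HFD-EV over Chow-EV and 0 higher and 2 lower in HFD-LKO EV over Chow-LKO EV. With quantile normalisation, the median was -0.0703 in HFD-LKO EV over Chow-LKO EV, with 2 lower, beside 18 of all 518 miRNAs. In HFD-EV over Chow-EV, 1 member was higher and 2 were lower, beside 14 and 14 of all 512 miRNAs. With the authors' normalised signals, the median was 0.13 in Chow-LKO EV over Chow-EV and 0.0938 in HFD-EV over Chow-EV, with 0 higher and 0 lower in HFD-EV over Chow-EV and in HFD-LKO EV over Chow-LKO EV, and 1 lower in HFD-LKO EV over HFD-EV.

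With the brightest probe alone, the median was -0.17 in Chow-LKO EV over Chow-EV, with 0 lower, beside 26 of all 514 miRNAs. It was -0.30 in HFD-LKO EV over HFD-EV. In HFD-LKO EV over Chow-LKO EV, 2 members were lower, beside 6 of all 523 miRNAs. With every probe above background required, it was 0.36 in Chow-LKO EV over Chow-EV and -0.13 in HFD-LKO EV over Chow-LKO EV, with 0 higher there and 0 lower in HFD-EV over Chow-EV. With normexp, the median was 0.0511 in HFD-EV over Chow-EV, 0 were higher and 0 lower in HFD-EV over Chow-EV, in Chow-LKO EV over Chow-EV and in HFD-LKO EV over Chow-LKO EV, and 1 was higher and 1 lower in HFD-LKO EV over HFD-EV. Under normexp the 2-fold calls over all miRNAs were fewer as well, as given above for the 2 diet comparisons. They were 2 upward and 3 downward in Chow-LKO EV over Chow-EV, and 10 upward and 5 downward in HFD-LKO EV over HFD-EV. Under the authors' signals, 16 of all 527 miRNAs passed upward and 6 downward in HFD-LKO EV over HFD-EV. With the detection call of Feature Extraction, 2 members were lower in HFD-EV over Chow-EV. With its total gene signal, the median turned to 0.11 in HFD-LKO EV over HFD-EV, HFD-LKO EV over Chow-LKO EV had 3 higher and 3 lower, and 3 were lower in Chow-LKO EV over Chow-EV. That setting also turned the sign of miR-6347 (-0.78 in HFD-EV over Chow-EV, 0.82 in HFD-LKO EV over HFD-EV), miR-6351 (-0.56 in HFD-EV over Chow-EV, 0.80 in Chow-LKO EV over Chow-EV, -2.03 in HFD-LKO EV over Chow-LKO EV) and miR-6386 (3.22 in HFD-EV over Chow-EV, 2.87 in HFD-LKO EV over Chow-LKO EV). It turned ratios within 2 spot SDs as well, those of miR-6352 to 4.22 in Chow-LKO EV over Chow-EV and -4.18 in HFD-LKO EV over Chow-LKO EV, miR-6359 to 1.44 in HFD-LKO EV over HFD-EV, miR-6402 to -0.17 in HFD-EV over Chow-EV and 0.61 in HFD-LKO EV over HFD-EV, and miR-6388, miR-6401 and miR-6415 in HFD-LKO EV over Chow-LKO EV. Keeping outlier spots, or using a floor in place of the filter, moved no median by more than its spread and no count by over 1.5 times. Across the settings, miR-6392-3p ran from -2.56 to -1.82 in HFD-LKO EV over HFD-EV, miR-6354 from 1.08 to 1.75 there, and miR-6349 from 0.91 to 1.58 in Chow-LKO EV over Chow-EV.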
